A study of Homo sapiens with 18 samples.

Results

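The immediate early transcription factors followed here are FOS, FOSB, JUN, JUNB, JUND, EGR1, EGR2 and EGR3, together with IER2 and IER3, which share their rapid induction. All 10 were found by symbol among the 27130 genes of the count tables, in RNA from 2 established human embryonic stem cell lines, H1 (WA01) and H9 (WA09). Cells were either wild type or clones in which the zinc finger factor gene ZNF263 had been edited with Cas9. The design asks about the part ZNF263 plays in keeping cells pluripotent. Per the labels, clone 1-10 of H1 and clones 9-1 and 9-D of H9 are homozygous knockouts and clone 1-5 of H1 is a heterozygous one. No drug, differentiation cue or time point is given for any group. The replicated libraries, 3 per group, were H1 wild type, H1 clone 1-10, H9 wild type, H9 clone 9-1 and H9 clone 9-D, and wild type, clone 1-5 and clone 1-10 of H1 were each also sequenced in a single library. The replicated H1 comparison therefore rests on 1 clone and the H9 comparison on 2. Nothing in the labels says that replicates were separate cultures, so the p-values measure the spread between these libraries, which may be technical.

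Immediate early genes are switched on within minutes of a signal such as a growth factor, with no need for new protein. FOS and JUN proteins pair through leucine zippers into AP-1, which binds DNA at AP-1 and cyclic AMP response (CRE) sites, and JUN promotes its own transcription through AP-1-like sites in its promoter. EGR1, EGR2 and EGR3 are zinc finger factors whose promoters carry CArG boxes, the sites of serum response factor (SRF), which works with ternary complex factors that ERK phosphorylates. Human embryonic stem cells are commonly grown with FGF, which activates ERK.

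Library totals were 9.66 to 21 M counts, and a count of 0 allowed up to 0.310 CPM (counts per M counted reads) in the shallowest. All 8 stem cell markers were detected in every library, with a summed level of 7970 to 8343 CPM in H1 wild type and 6688 to 6886 CPM in H9 wild type. The stem cell sum was 8842 to 9112 CPM in clone 1-10, 7815 to 8069 CPM in clone 9-1 and 7987 to 8164 CPM in clone 9-D. The 3 blood markers summed to at most 2.47 CPM in any library, and the fibroblast genes DCN and LUM averaged at most 0.118 CPM in any group, while THY1, COL1A1 and COL1A2 of the same list were well expressed. The endothelium genes PECAM1, CDH5 and KDR summed to 187 to 190 CPM in H1 wild type and 246 to 275 CPM in H9 wild type. Of these 3 genes 1 averaged under 1 CPM in H1 wild type and 2 in H9 wild type. ZNF263 itself fell from 40.7 ± 1.22 to 33.9 ± 1.98 CPM in clone 1-10, and in H9 from 42.3 ± 2.27 CPM to 36.0 ± 1.49 (9-1) and 36.1 ± 1.42 (9-D) (SD, n = 3 each). Which stretch of ZNF263 the editing removed is not in the labels, so its remaining transcript does not check the protein.

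Promoters of the members on which the results turn are shown first, for the known control elements they carry close to the start. Each is the 250 bases before the transcription start in RefSeq (GRCh38.p14), on the strand of the gene, at chr1:58784048-58784297 (minus) for JUN, chr5:138465229-138465478 (plus) for EGR1, chr14:75278578-75278827 (plus) for FOS and chr19:45467746-45467995 (plus) for FOSB. Capitals mark CArG boxes, the CRE core TGACG on either strand and, in JUN alone, TGACATCA and TTACCTCA, which resemble the AP-1 site.
JUN: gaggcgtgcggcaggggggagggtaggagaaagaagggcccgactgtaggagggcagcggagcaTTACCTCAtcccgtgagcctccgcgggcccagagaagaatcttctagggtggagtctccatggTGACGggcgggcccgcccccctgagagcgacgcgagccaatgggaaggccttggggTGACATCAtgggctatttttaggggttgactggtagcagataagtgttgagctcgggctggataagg
EGR1: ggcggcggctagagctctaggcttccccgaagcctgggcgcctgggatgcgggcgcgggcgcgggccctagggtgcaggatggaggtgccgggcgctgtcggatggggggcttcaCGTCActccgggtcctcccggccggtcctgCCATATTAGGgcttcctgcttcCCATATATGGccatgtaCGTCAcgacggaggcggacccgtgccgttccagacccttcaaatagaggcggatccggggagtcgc
FOS: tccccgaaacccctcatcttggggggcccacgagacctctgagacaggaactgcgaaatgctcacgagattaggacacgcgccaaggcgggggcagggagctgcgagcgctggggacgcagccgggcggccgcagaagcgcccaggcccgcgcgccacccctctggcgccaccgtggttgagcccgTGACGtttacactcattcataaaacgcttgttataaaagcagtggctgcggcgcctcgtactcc
FOSB: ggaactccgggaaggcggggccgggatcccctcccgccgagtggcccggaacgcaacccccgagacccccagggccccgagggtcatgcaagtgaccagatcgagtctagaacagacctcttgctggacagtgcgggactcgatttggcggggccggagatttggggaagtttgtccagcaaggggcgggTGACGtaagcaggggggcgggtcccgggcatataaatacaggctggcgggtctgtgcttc

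In the EGR1 window the CArG boxes CCATATTAGG and CCATATATGG lay 105 and 83 bases before the start, and a CArG box is found on either strand in 1.16% of 35116 promoter windows of this length. The CRE core stood 135 and 66 bases before the EGR1 start, 64 before that of FOS, 60 before that of FOSB and 123 before that of JUN, and 21.2% of windows hold it. In JUN, TGACATCA lay 67 bases and TTACCTCA 186 bases before the start, words found in 2.37% and 0.644% of windows. The EGR-type word GCGTGGGCG was in none of the windows of the 8 members with an entry, against 0.720% of all. The word GGAGGA, searched because ZNF263 is known to bind G-rich DNA, had a match on the other strand at EGR1 (123 bases before the start), JUNB and 1 of 3 EGR2 starts, against 31.8% of all windows. A match is a description of the letters, not a site that was measured. The FOS window held no CArG box, but elements farther upstream lie outside these windows. A word not found here may thus still stand in the promoter of that gene. EGR3 and IER3 had no entry.

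JUN, the AP-1 subunit that activates its own gene, was higher in every replicated knockout library than in all 3 replicated wild types of the same line. In H1 wild type its level was 19.8, 23.5 and 23.0 CPM (replicates 1 to 3), and in clone 1-10 it was 37.0, 41.6 and 31.6 CPM. The H9 wild-type libraries had 22.1, 20.1 and 24.9 CPM, against 35.5, 38.4 and 38.7 CPM in clone 9-1, and 30.7, 30.2 and 38.3 CPM in clone 9-D. Knockout and wild-type libraries did not overlap in either line, as was so upward for 14.3% of genes in H1 and 12.8% with both H9 clones. The wild types of both lines were close (tables scaled separately). The log2 fold change was 0.75 (SE 0.093) in clone 1-10 (adjusted p = 7.17e-07, Benjamini-Hochberg over all tested genes, edgeR). It was 0.75 (SE 0.091) in clone 9-1 and 0.56 (SE 0.092) in clone 9-D (adjusted p = 4.91e-08 and 1.30e-05, Benjamini-Hochberg, edgeR), which share their wild-type libraries. With both H9 clones together JUN rose from 22.4 ± 2.44 CPM (SD, n = 3) to 35.3 ± 3.94 CPM (SD, n = 6). JUN was called in every alternative tried for clone 1-10 (14), clone 9-1 (17), clone 9-D (17) and both H9 clones (16).

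In clone 1-10 JUN was the only member called of 9 tested, against 12.3% of the 14897 genes tested. In each H9 clone 4 of 9 tested were called, JUN higher and EGR1, FOSB and IER3 lower. Of all 15411 genes tested there, 26.3% were called in clone 9-1 and 23.5% in clone 9-D, and with both clones together the same 4 members were called against 29.7% of genes. So many genes were called in H9 that the members' count there says little on its own. The median log2 fold change of the tested members was -0.00 in clone 1-10, where that of all genes was 0.00, and -0.06 with both H9 clones, where that of all genes was -0.00.

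**Figure D1:**
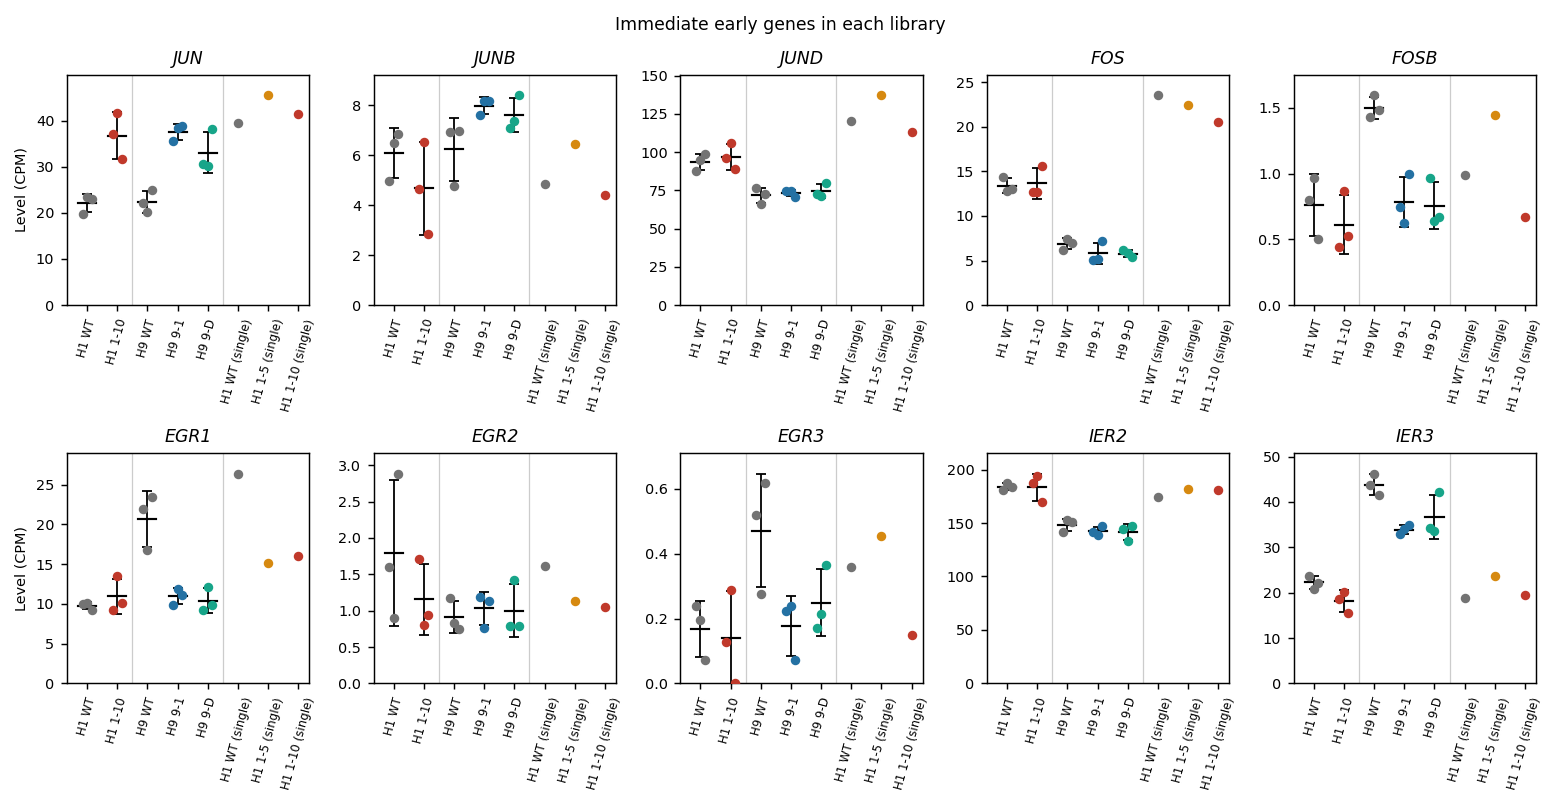
Level in CPM (vertical axes, from 0, scaled within the H1 and the H9 table) of each of the 10 genes by group; points are libraries, black lines the mean and bars the SD of 3 replicates, with single libraries at the right of each panel. JUN is near 22 CPM in both replicated wild types and at 30.2 to 41.6 CPM in the replicated knockouts, but at 39.6 CPM in the single H1 wild-type library. EGR1 is lower in knockouts than in wild type in H9 and in the single H1 set, and not in the replicated H1 set.

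JUNB, a JUN relative that is often the weaker activator, was called in no comparison. It was at 4.96, 6.46 and 6.84 CPM in H1 wild type, and clone 1-10 had 4.64, 6.53 and 2.83 CPM, which overlapped. The H9 wild-type libraries had 6.94, 4.78 and 6.98 CPM, against 7.59, 8.17 and 8.16 CPM in clone 9-1, and clone 9-D had 7.08, 7.37 and 8.38 CPM. All 6 H9 knockout libraries lay above the 3 wild-type ones, as was so in the upward direction for 12.8% of genes. The log2 fold change with both clones was 0.32 (SE 0.127) and missed the threshold (adjusted p = 0.0578, Benjamini-Hochberg, edgeR), with a 95% interval of 0.07 to 0.57 (normal quantile times SE). It passed without H9 wild-type replicate 3 (0.0498), without 9-D replicate 1 (0.0463) and with GC correction (0.0223, all Benjamini-Hochberg, edgeR). In clone 1-10 the log2 difference of JUNB was -0.32 (SE 0.196; adjusted p = 0.306, Benjamini-Hochberg, edgeR), and -0.65 without clone 1-10 replicate 2 (adjusted p = 0.0339).

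JUND, the JUN protein that is present in most resting cells, was well above the other JUN and FOS genes per length in every group. Its level was 87.9 to 98.6 CPM in H1 wild type, and clone 1-10 had 89.0 to 106.0 CPM. It was 66.4 to 76.4 CPM in H9 wild type and 70.8 to 80.1 CPM over the 6 H9 knockout libraries. Groups overlapped in both lines. Its log2 fold change of 0.05 (95% interval -0.07 to 0.18) in clone 1-10 was not called, but was 0.21 with GC correction (adjusted p = 0.0022, Benjamini-Hochberg, edgeR). In H9 it was 0.05 with both clones (95% interval -0.06 to 0.16) and turned to -0.00015 when libraries were scaled by their totals alone.

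FOS, the partner that gives AP-1 its stable pairing with JUN, did not follow JUN. It was at 14.4, 12.8 and 13.0 CPM in H1 wild type, and clone 1-10 had 12.7, 12.7 and 15.6 CPM, a log2 difference of 0.01 with a 95% interval of -0.21 to 0.24, and of -0.03 with library totals alone. The H9 wild-type levels were 6.23, 7.41 and 6.98 CPM, against 5.06, 5.16 and 7.17 CPM in clone 9-1, and clone 9-D had 6.17, 5.81 and 5.34 CPM. The difference with both H9 clones was -0.25 (95% interval -0.51 to 0.01) and was not called (adjusted p = 0.154, Benjamini-Hochberg, edgeR).

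FOSB, the FOS relative with the lowest level, was at 1.43, 1.59 and 1.48 CPM in H9 wild type. It was at 0.744, 0.621 and 0.993 CPM in clone 9-1, and clone 9-D had 0.963, 0.638 and 0.668 CPM, below all wild-type libraries, as was so in the downward direction for 13.6% of genes. These levels rest on 22 to 24 counts per wild-type library and 9 to 17 per knockout library. With both clones FOSB fell by 0.96 on the log2 scale (SE 0.273; adjusted p = 0.00756, Benjamini-Hochberg, edgeR). Per clone the call was weaker, at adjusted p = 0.0292 (9-1) and 0.0305 (9-D) (Benjamini-Hochberg, edgeR), and DESeq2 did not make it (0.113 and 0.110). It was lost without any 1 of the 3 H9 wild-type libraries (0.0564 to 0.0786 in 9-1 and 0.0606 to 0.0808 in 9-D), without 9-1 replicate 1 (0.0772) or 2 (0.157), and without 9-D replicate 2 (0.105) or 3 (0.0985). In H1, FOSB was at 0.799, 0.970 and 0.504 CPM in wild type, and clone 1-10 had 0.445, 0.866 and 0.525 CPM, which overlapped.

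EGR1, an SRF and ERK target that is induced by many growth factors, fell in both H9 clones and was not called in the H1 clone. Its H9 knockout levels came close to those of H1, in tables that were scaled separately. It was at 22.0, 16.8 and 23.4 CPM in H9 wild type, 9.90, 11.8 and 11.1 CPM in clone 9-1 and, in clone 9-D, 9.23, 12.2 and 9.84 CPM. The knockout and wild-type levels of EGR1 did not overlap, as was so downward for 13.6% of genes with both clones. In H1 it was at 9.99, 10.1 and 9.29 CPM in wild type, and clone 1-10 had 9.21, 13.5 and 10.2 CPM, which overlapped. The log2 fold change was -0.91 (SE 0.118) in clone 9-1 and -1.004 (SE 0.120) in clone 9-D, with adjusted p = 1.71e-07 and 3.22e-08 (Benjamini-Hochberg, edgeR). With both clones it was -0.96 (SE 0.102; adjusted p = 1.03e-08, Benjamini-Hochberg, edgeR), and it was called in all 16 alternatives. In clone 1-10 the log2 difference was 0.18 with a 95% interval of -0.09 to 0.44 (adjusted p = 0.431, Benjamini-Hochberg, edgeR), and it turned to -0.02 without clone 1-10 replicate 2, the library at 13.5 CPM. In bulk libraries fewer cells making a transcript and less RNA per cell cannot be told apart.

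EGR2 and EGR3 were near the limit of these libraries. EGR2 was at 1.60, 0.905 and 2.88 CPM in H1 wild type, and clone 1-10 had 1.72, 0.809 and 0.945 CPM, and its 3 H9 groups, between 0.741 and 1.42 CPM, overlapped. The log2 fold change of EGR2 was -0.60 (SE 0.368) in clone 1-10 and 0.12 (SE 0.309) with both H9 clones, neither of them called, and the latter was -0.02 without H9 wild-type replicate 3. EGR3 did not pass the filter on low counts in the H1 or the H9 comparison. It had 3, 3 and 1 counts in H1 wild type and 2, 5 and 0 in clone 1-10. In H9 it had 8, 4 and 10 counts in wild type, 3, 5 and 1 in clone 9-1 and 3, 3 and 6 in clone 9-D. Summed over libraries, 21 counts in the 6 H9 knockout libraries and 22 in the 3 wild-type ones gave a ratio of 0.440 per library total (exact 95% interval 0.230 to 0.840, which covers counting error only).

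IER3, a stress-induced gene that can limit cell death, fell in both H9 clones, and its difference in the replicated H1 libraries had the same sign without being called. It was at 43.7, 46.2 and 41.6 CPM in H9 wild type, 32.9, 33.9 and 34.9 CPM in clone 9-1, and clone 9-D had 34.3, 33.6 and 42.2 CPM, where 1 library reached into the wild-type range. The log2 fold change was -0.37 (SE 0.080) in clone 9-1 and -0.25 (SE 0.080) in clone 9-D, with adjusted p = 0.000603 and 0.0176 (Benjamini-Hochberg, edgeR). The call in 9-D was lost without H9 wild-type replicate 2 (0.0758), 9-D replicate 1 (0.115) or 9-D replicate 2 (0.136). In H1 it was at 23.7, 20.9 and 22.2 CPM in wild type, and clone 1-10 had 18.7, 20.2 and 15.5 CPM. These groups did not overlap, as 15.1% of genes did not in the downward direction. The log2 fold change of -0.27 (SE 0.100) missed the threshold (adjusted p = 0.0681, Benjamini-Hochberg, edgeR). It passed in 4 of 14 alternatives: with library totals alone (0.0379), without clone 1-10 replicate 2 (0.0230, both Benjamini-Hochberg, edgeR) and in the fits with the replicate block.

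IER2, a nuclear protein of the same kinetic class, was called in no comparison. It was at 180.8 to 187.7 CPM in H1 wild type, and clone 1-10 had 169.4 to 193.9 CPM. It was at 141.3 to 152.4 CPM in H9 wild type and 132.8 to 147.1 CPM in the H9 knockouts. Its log2 difference was -0.0017 in clone 1-10 (95% interval -0.11 to 0.11), and turned to 0.0043 with DESeq2 and to 0.065 with GC correction. It was -0.06 with both H9 clones (95% interval -0.16 to 0.04).

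**Figure D2:**
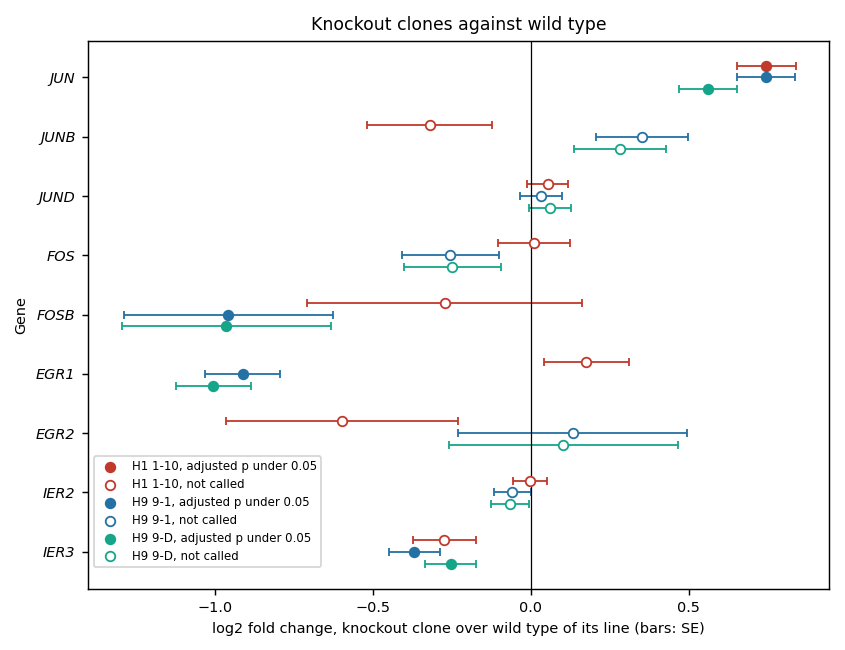
Log2 fold change of each clone over the wild type of its line (horizontal axis) for the 9 members tested, with SE as bars; filled points have an adjusted p under 0.05 in edgeR. JUN lies right of 0 in all 3 clones, EGR1 and FOSB lie near -1 in both H9 clones and not in the H1 clone, and IER3 lies left of 0 in all 3.

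Between the 2 H9 clones none of the 9 tested members was called, against 0.305% of genes (47 of 15411, Benjamini-Hochberg, edgeR), and 1 member, JUN, had an unadjusted p under 0.05. DESeq2 called no member either. JUN differed by -0.18 on the log2 scale (9-D minus 9-1, 95% interval -0.35 to -0.01). Its p in edgeR's test was 0.0409, and 0.723 after Benjamini-Hochberg adjustment. For EGR1 the interval of the difference was -0.34 to 0.16, for FOSB -0.75 to 0.73 and for IER3 -0.04 to 0.27.

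The difference between the lines was tested directly, as the mean effect of the H9 clones minus the effect of clone 1-10 over all 15 replicated libraries. EGR1 was the only member called of 9 tested, against 9.21% of 15802 genes. Its difference was -1.14 on the log2 scale (SE 0.177; adjusted p = 8.67e-06, Benjamini-Hochberg, edgeR), and it was called in all 22 alternatives. For JUN the difference was -0.09 with a 95% interval of -0.35 to 0.16, and it was 0.0071 without clone 1-10 replicate 2. For IER3 it was -0.04 (95% interval -0.28 to 0.20). JUNB differed by 0.63 (95% interval 0.16 to 1.1), which missed the threshold (adjusted p = 0.0947, Benjamini-Hochberg, edgeR) and passed it without clone 1-10 replicate 2 (0.96, adjusted p = 0.00782) and unfiltered (adjusted p = 0.0416). FOSB, called in H9 and not in H1, was not shown to differ between the lines (-0.69, 95% interval -1.69 to 0.32).

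Before any knockout the lines already differed in several members. With the 15 replicated libraries scaled together, the 3 H9 wild-type libraries lay above the 3 of H1 for EGR1 (20.6 against 9.83 CPM), IER3 (43.5 against 22.4), FOSB (1.49 against 0.761) and EGR3 (0.468 against 0.169). They lay below them for FOS (6.82 against 13.5 CPM), JUND (71.2 against 94.2) and IER2 (147.1 against 184.9), and overlapped for JUN, JUNB and EGR2. Of all genes, 58.2% did not overlap between the 2 wild types, so the lines differ broadly. The labels do not say whether both lines were grown or sequenced together, so line and batch cannot be told apart.

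Set on a scale per length (CPM per kilobase of exon, GENCODE), IER2 ranked first of the 10 in all 5 replicated groups, at 59.9 ± 1.14 in H1 wild type and 48.2 ± 1.95 in H9 wild type (SD, n = 3). JUND came next at 50.3 ± 2.89 and 38.5 ± 2.70, and IER3 ranked next after it at 16.4 ± 1.06 and 32.3 ± 1.69. JUN followed at 6.24 ± 0.558 in H1 wild type, above FOS at 4.56 ± 0.292, JUNB at 3.34 ± 0.548 and EGR1 at 3.12 ± 0.139 CPM per kilobase, of which JUNB and EGR1 lay within their spread of each other. In H9 wild type EGR1 (6.60 ± 1.11) and JUN (6.32 ± 0.689) lay within their spread, above JUNB (3.42 ± 0.692) and FOS (2.34 ± 0.203). EGR2, FOSB and EGR3 were the lowest in both lines, at 0.572, 0.136 and 0.0379 in H1 wild type. In H9 wild type EGR2 (0.291 ± 0.072) and FOSB (0.270 ± 0.015) lay within their spread, above EGR3 (0.106 ± 0.039). In clone 9-1 and clone 9-D JUN stood at 10.6 ± 0.504 and 9.34 ± 1.28 CPM per kilobase and EGR1 at 3.49 ± 0.315 and 3.32 ± 0.498, so that JUN stood well above EGR1 there.

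The separate H1 set, of 1 library per group, allows no test, and its levels are set on library totals. EGR1 was at 26.4 CPM in wild type, 15.1 CPM in the heterozygous clone 1-5 and 16.1 CPM in clone 1-10. The ratio of EGR1 to wild type was 0.572 in clone 1-5 (exact 95% interval 0.476 to 0.687) and 0.608 in clone 1-10 (0.508 to 0.728). JUN was at 39.6, 45.4 and 41.5 CPM, with a ratio of 1.15 (1.01 to 1.30) in clone 1-5 and of 1.05 (0.924 to 1.19) in clone 1-10. These intervals cover counting error only, and they excluded 1 for 23.2% of genes in clone 1-5 and 19.7% in clone 1-10. In this set JUN in wild type was as high as in the replicated clone 1-10, and EGR1 in wild type stood above every replicated H1 library. FOS, too, was higher here (23.5, 22.5 and 20.5 CPM) than in any replicated H1 library. These levels were scaled separately from the replicated tables. So clone 1-10 showed higher JUN and overlapping EGR1 in the replicated set, and close JUN and lower EGR1 in the single set, and the difference between the sets was not tested. IER3 was at 18.8, 23.7 and 19.6 CPM, JUND at 120.5, 137.1 and 113.1 CPM, and IER2 at 174.1, 181.7 and 180.9 CPM. The ratio of IER3 to wild type was 1.26 (1.06 to 1.51) in clone 1-5 and 1.04 (0.866 to 1.26) in clone 1-10. Both ratios lay above 1, whereas IER3 was lower than wild type in the replicated clone 1-10.

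The wider pathway was described by lists of genes known from it, each read against the share of all genes called. The shares given with the first list apply to all of them. Of 12 other AP-1 and related zipper genes tested, 4 rose and 0 fell with both clones (median 0.17), where 14.4% of all genes rose and 15.3% fell. FOSL1, a FOS relative without a strong activation domain, rose by 0.42 (SE 0.109), JDP2, an AP-1 repressor, by 0.34 (SE 0.084), ATF3, a stress-induced zipper factor, by 0.33 (SE 0.085) and MAFG, a small MAF protein, by 0.28 (SE 0.052) on the log2 scale. The call of ATF3 was lost without H9 wild-type replicate 2 (adjusted p = 0.0578, Benjamini-Hochberg, edgeR). In clone 1-10, 0 of 12 rose and 1 fell, MAFF by 0.54 (SE 0.151), where 5.01% of all genes rose and 7.25% fell. The call of MAFF was lost with DESeq2 (adjusted p = 0.0781) and without H1 wild-type replicate 3 (adjusted p = 0.118) or clone 1-10 replicate 1 (0.0517, Benjamini-Hochberg, edgeR).

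Of 36 other immediate early genes tested, 12 rose and 4 fell with both H9 clones (median 0.13). Among those that rose were KLF4, a pluripotency-associated Krüppel-like factor, by 0.61 (SE 0.096), from 25.2 to 38.5 CPM, and PLK2, a polo-like kinase, by 0.51 (SE 0.098), from 13.1 to 18.7 CPM. Among those that fell were IER5, a gene of the IER2 family, by 0.73 (SE 0.100), from 22.3 to 13.5 CPM, and the nuclear receptor NR4A1 by 0.49 (SE 0.087), from 26.9 to 19.2 CPM. In clone 1-10, 1 of 36 rose and 6 fell (median -0.01). The gene that rose was MYC, by 0.23 (SE 0.061). IER5L fell by 0.82 (SE 0.278), the antiproliferative gene BTG2 by 0.66 (SE 0.152), NR4A1 by 0.37 (SE 0.098) and IER5 by 0.35 (SE 0.092) on the log2 scale, so that IER5 and NR4A1 were called lower in both lines. In H1 IER5 was not called without wild-type replicate 2 (adjusted p = 0.0577) or clone 1-10 replicate 1 (0.0542), that of NR4A1 without wild-type replicate 3 (0.0911) or clone 1-10 replicate 1 (0.0553), and that of MYC without wild-type replicate 3 (0.106, all Benjamini-Hochberg, edgeR). IER5L, whose groups overlapped, was lost with DESeq2 (adjusted p = 0.151), with all 15 libraries in the fit (0.0570), with GC correction (0.0575) and without H1 wild-type replicate 2 (0.245) or 3 (0.0899) or clone 1-10 replicate 1 (0.276) or 3 (0.148). Over the alternatives 8 to 14 of this list rose and 3 to 6 fell in H9, and 0 to 3 rose and 1 to 8 fell in H1. In H1 3 fell without wild-type replicate 2 or 3, and 1 without clone 1-10 replicate 1.

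Of 12 genes of SRF, its ternary complex factors and cofactors, 2 rose and 2 fell with both H9 clones, and 0 changed in clone 1-10 with edgeR. The H9 counts were close to the share of all genes, of which 14.4% rose and 15.3% fell. NAB2 and NAB1, repressors that bind EGR proteins, fell in H9 by 0.36 (SE 0.074) and 0.29 (SE 0.060), and the cofactor FHL2 rose by 0.36 (SE 0.074). SRF itself rose by 0.15 (SE 0.055), a call lost with library totals alone (adjusted p = 0.156) and without H9 wild-type replicate 2 (0.290) or 3 (0.0573), 9-1 replicate 1 (0.0647) or 3 (0.0683) or 9-D replicate 1 (0.0648, all Benjamini-Hochberg, edgeR). Of 23 ERK, JNK and p38 pathway kinases, 1 rose and 3 fell in H9 and 1 rose and 1 fell in H1, where none rose without wild-type replicate 1 or 3 or clone 1-10 replicate 1 or 2. None of these kinase counts lay above the share of all genes. The JNK gene MAPK10 fell by 1.18 (SE 0.204) in clone 1-10, from 6.16 to 2.82 CPM, and by 0.65 (SE 0.204) with both H9 clones, the latter not without H9 wild-type replicate 2 (-0.38, adjusted p = 0.234, Benjamini-Hochberg, edgeR). MAP2K6, an activator of p38, fell by 0.48 (SE 0.063) in H9.

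Of 12 genes of ERK feedback, 1 rose and 2 fell with both H9 clones, and 0 rose and 4 fell in clone 1-10. DUSP6, the phosphatase that ERK induces to switch itself off, fell in H9 by 1.08 (SE 0.053), from 132.9 to 63.0 CPM, a change of about the size of that of EGR1. Unlike EGR1 it was also called lower in clone 1-10, by 0.44 (SE 0.054), and the difference between the lines was itself called (-0.64, SE 0.078, adjusted p = 6.75e-08, Benjamini-Hochberg, edgeR). The ERK-responsive factor ETV5 fell by 0.35 in both lines (SE 0.075 in H9 and 0.071 in H1), while its relative ETV4 rose in H9 by 0.33 (SE 0.063). Of 12 heat shock genes, which many stresses induce together with JUN and FOS, 5 rose and 0 fell in H9, and 5 rose and 1 fell in H1. In H9 the count that rose was 2 without wild-type replicate 1 or 3 or 9-1 replicate 3, 3 without 9-1 replicate 2 or 9-D replicate 1, and 2 to 7 over all alternatives, against 4 to 7 in H1. HSPA8 rose by 0.22 (SE 0.047) in H9 and 0.39 (SE 0.039) in H1. HSPA1A and HSPA1B are near-identical genes whose reads may be split, and their counts are uncertain.

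**Figure D3:**
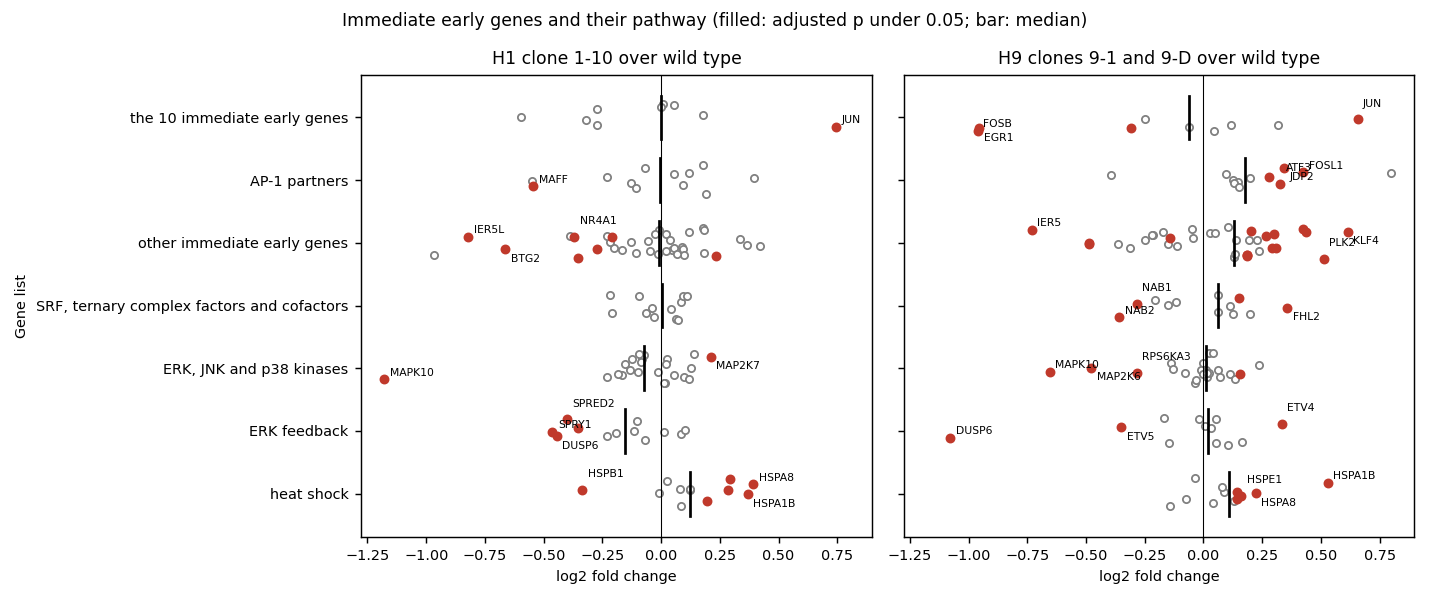
Log2 fold change (horizontal axes) of the members and of 6 pathway lists in H1 clone 1-10 and in both H9 clones; each point is a gene, filled where the adjusted p in edgeR is under 0.05, and black bars are medians. EGR1, FOSB and DUSP6 lie near -1 in H9, where JUN, JDP2, FOSL1 and KLF4 lie to the right of 0, and in H1 JUN lies farthest to the right of the genes drawn.

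Some genes of the marker lists moved with the knockout too, and their part in the changes above was not tested. Of all genes, 5.01% rose and 7.25% fell in clone 1-10, and 14.4% rose and 15.3% fell with both H9 clones. Of 5 neuroectoderm genes 4 fell in clone 1-10, and 3 to 5 over the alternatives. The call of OTX1 was lost with DESeq2 (adjusted p = 0.154) and with all 15 libraries in the fit (0.0927, Benjamini-Hochberg, edgeR). The summed level of the 5 genes was 20.4 to 26.1 CPM in H1 wild type and 6.09 to 9.47 CPM in the clone. In H9 the same sum was 3.74 to 5.80 CPM in wild type and 1.58 to 3.62 CPM in the knockouts. Only 2 of these 5 genes were tested there, and 0 were called with both clones (0 to 2 lower over the alternatives). Of the fibroblast and feeder list 5 of 8 tested genes fell in clone 1-10, and in H9 5 of 7 fell and 1 rose (COL1A1). In clone 1-10 this count was 1 without H1 wild-type replicate 3 and 2 without clone 1-10 replicate 1 or with DESeq2. Its summed level was 667 to 701 CPM in H1 wild type, and clone 1-10 had 606 to 734 CPM, and 924 to 971 CPM in H9 wild type, 813 to 887 CPM in clone 9-1 and 904 to 993 CPM in clone 9-D. Of the 8 stem cell markers 7 rose in H9 and 2 in H1. The H9 count was 4 without wild-type replicate 1, and the H1 count 4 without clone 1-10 replicate 2. Of 2 endothelium genes tested in each line 1, CDH5, was called lower in clone 1-10 and with both H9 clones, but not in clone 9-D alone. Its call in clone 1-10 was lost with DESeq2 (adjusted p = 0.103) and without H1 wild-type replicate 2 (0.151) or clone 1-10 replicate 1 (0.132, both Benjamini-Hochberg, edgeR).

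Replicates differed unequally from member to member. A chi-square of the counts around the group means, per degree of freedom (10 in all), would be near 1 for counting error alone, and its median over 15802 tested genes was 2.09. It was 5.18 for JUN, 4.96 for JUND, 4.63 for IER2, 4.27 for EGR1, 3.34 for IER3, 3.17 for JUNB, 3.06 for EGR2, 1.60 for FOS and 0.774 for FOSB. At the same relative spread this value grows with the counts, so it does not rank members of different level by spread. The within-group SD on the log2 scale was 0.323 for JUNB and 0.157 for JUN, against medians of 0.185 and 0.0995 for genes of like level, and 0.068 for IER2, against 0.069. The rise of JUN of 0.56 to 0.75 was thus several times its spread, whereas the difference in JUNB was about as large as its own.

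The JUN genes deviated together. Over the 15 replicated libraries, with each gene set against its own group mean, Pearson's r was 0.86 for JUN and JUNB, 0.81 for JUN and JUND and 0.89 for JUNB and JUND, while it was -0.73 for FOS and JUND, as a description of libraries that share depth and base composition. The mean profile of the 7 members at 5 CPM or more was highest in clone 1-10 replicate 2 (1.10 in SD units) and lowest in clone 1-10 replicate 3 (-1.05). Of 11554 other genes, those most like this profile were CD151 (r = 0.95), RNPEPL1, XAB2, TRPM4, ATP6V0C, AP1G2, CD276 and DAP (r = 0.92), over 15 libraries. These 8 genes have a GC content of 54.3% to 63.6%, where the median of tested genes is 48.7%. The correlation of a library's deviations with GC over 15038 genes ranged from -0.308 (clone 9-D replicate 1) to 0.462 (clone 9-D replicate 3), and was 0.414 in clone 1-10 replicate 2. JUN has a GC content of 56.7% and EGR1 of 55.4%. In clone 1-10 the median log2 fold change of the 850 genes nearest JUN in GC was -0.00, and with both H9 clones that of the 879 genes nearest EGR1 was -0.02. For the genes nearest JUND (GC 69.7%), JUNB (64.9%) and IER2 (61.7%) it was -0.16, -0.08 and -0.06 in clone 1-10. With both H9 clones these medians were -0.04, -0.01 and -0.01.

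**Figure D4:**
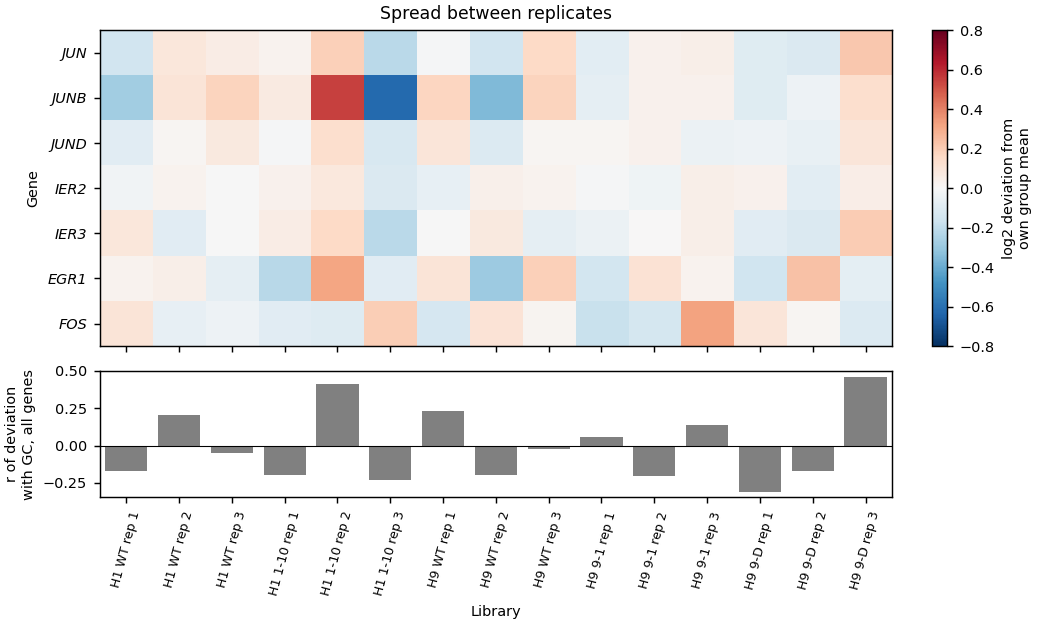
Upper panel, the log2 deviation of each library (columns) from its own group mean for the 7 members at 5 CPM or more, in color; lower panel, Pearson's r of each library's deviation with GC content over 15038 genes. JUN, JUNB and JUND deviate alike, with the widest gap in JUNB between clone 1-10 replicates 2 and 3 (0.55 and -0.62), and the library with the highest r, 0.462, is clone 9-D replicate 3.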

How the data were processed

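Polyadenylated RNA was sequenced in 18 libraries. The submitters' processing notes name STAR, featureCounts, DESeq2 and the hg19 build; versions and strand options are not given in the sources used here. The deposited tables hold whole read counts, and the authors' deposited comparison tables, which give log2 fold changes and p-values, served as a side check only. Members and lists were chosen with earlier results of these data known.

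Counts were tested with edgeR 4.0.16 (R 4.3.3): the quasi-likelihood F test after TMM scaling and a filterByExpr filter, with a threshold of 0.05 on Benjamini-Hochberg values over all tested genes. The SE is the size of the log2 change over the root of F. Log2 fold changes are knockout over wild type. CPM is scaled by TMM within the H1 and the H9 table. The test was also run on simulated counts, drawn without effects of base composition and without a spread of each gene's own. That run does not cover these features of the libraries. Alternatives were DESeq2 1.42.0, RLE factors, library totals, no filter, other sets of libraries, a replicate block and each replicate left out; GC correction was added after seeing the data. No 2 replicates agreed within counting error (chi-square 1.80 to 5.61 per gene in the 15 pairs). The limit for a count of 0 was 3 counts.

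All members are named where replicated knockouts are compared with the wild type of their line. Between the H9 clones, between the lines and in the single H1 set only some members are named. From each list the text names up to 4 called genes with the largest change, and a few more for calls it lists in full. The 8 genes most like the members' mean profile are also named. Promoters are RefSeq's (GRCh38.p14; 8 of 10 members matched), and GC and exon lengths are from GENCODE (a value for 89.2% of genes); neither shares the assembly used for counting. Antisense genes overlap EGR3, IER2 and IER3 in that annotation and none stands in the count tables. The result of 1 pathway gene is not reported here.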

Additional observations from a re-analysis of the deposited data

Results flagged for a closer look

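The effect of the knockout differed between the lines, by the direct test of the difference over 15 libraries (H9 minus H1, log2 scale, Benjamini-Hochberg, edgeR), for 1 member and the genes of its pathway named here. Of all 15802 genes tested 9.21% were called in this test, so the number of genes named here says little on its own. EGR1 differed by -1.14, its level being lower in H9 knockouts and overlapping in the replicated H1 libraries. The single H1 libraries, which were not in this test, had EGR1 below their wild type, at a ratio of 0.572 (exact 95% interval 0.476 to 0.687) in clone 1-5 and 0.608 (0.508 to 0.728) in clone 1-10, so that the difference between lines is that of the replicated libraries. Differences in the same direction were found for DUSP6 (-0.64), AMIGO2 (-0.62), ARC (-0.46), HSPA1A (-0.38) and MAP2K6 (-0.31). The counts of HSPA1A are uncertain, as its reads may be split with the near-identical HSPA1B. Differences in the other direction were found for MAFF (0.74), SPRY1 (0.62), DUSP5 (0.46), CTGF (0.41), ETV4 (0.40), SPRED2 (0.38) and PHLDA1 (0.29). The calls of EGR1, MAFF, DUSP6, SPRY1, DUSP5, CTGF, ETV4 and ARC were kept in every alternative, and that of each of the other 5 was lost when at least 1 single library was left out. In PHLDA1, for example, the value was 0.20 without H1 wild-type replicate 3 (adjusted p = 0.215, Benjamini-Hochberg, edgeR). The cause of these differences was not tested.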

How the results depend on the processing

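In clone 1-10 against H1 wild type, 1827 genes were called by edgeR, 1210 by DESeq2, 2821 with GC correction, 3283 with GC correction and the replicate block together, and 949 to 2100 when 1 library was left out (949 without H1 wild-type replicate 3). Members called there, 1 in the fit reported, numbered 2 with library totals alone, 2 with GC correction, 3 with GC correction and the block, and 1 to 3 with 1 library left out (3 without clone 1-10 replicate 2). In clone 9-D 2 to 4 members were called with 1 library left out. Between the H9 clones 25 to 53 genes were called in this way, and for the difference between lines 1 to 2 members, or 2 with no filter on low counts. The cause of these changes was not tested.

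Replicate numbers paired the libraries weakly at most. The correlation of same-numbered deviations was -0.0268 to 0.0796, and that of differently numbered ones -0.0796 to 0.0351. In H1 the same-numbered values were 0.0278, 0.0796 and 0.0503, against -0.0796 to 0.0320 for the others. Whether the numbers mark pairs was not tested. With the replicate block 2926 genes and 2 members, JUN and IER3, were called in clone 1-10 (IER3 -0.28, adjusted p = 0.0309, and 0.0374 with GC correction added, Benjamini-Hochberg, edgeR), and the block changed no other count of members.

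Signs turned only where no call was made. In clone 1-10 IER2 was 0.0043 with DESeq2, 0.0060 with no filter, 0.0047 with all 15 libraries, 0.065 with GC correction and 0.062 with the block added, and FOS was -0.026 with library totals. JUND with library totals was -0.0086 in clone 9-1 and -0.00015 with both H9 clones. Between the H9 clones FOS was -0.0044 with library totals, -0.010 with GC correction and -0.0045 with the block added, and JUND was -0.0022 and -0.0042 under the latter pair. With 1 library left out, clone 1-10 gave EGR1 -0.024 to 0.30, FOS -0.076 to 0.062, IER2 -0.042 to 0.051 and JUND -0.015 to 0.11. Clone 9-1 gave EGR2 -0.0067 to 0.35 and JUND -0.024 to 0.075, and clone 9-D gave EGR2 -0.19 to 0.32. Both clones gave EGR2 -0.020 to 0.33 and JUND -0.0082 to 0.091. Between the clones EGR2 was -0.33 to 0.12, FOS -0.081 to 0.18, FOSB -0.23 to 0.19, IER2 -0.029 to 0.043 and JUND -0.019 to 0.064. The difference between lines was -0.12 to 0.043 for IER3, -0.18 to 0.0071 for JUN and -0.067 to 0.061 for JUND. Depth limits EGR2, EGR3 and FOSB, with few counts per library.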
